A study of Mus musculus with 12 samples.

Results

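Cathepsins are the proteases of the lysosome and of endosomes, and the 10 genes described here were Ctsa, Ctsb, Ctsc, Ctsd, Ctse, Ctsh, Ctsk, Ctss, Ctsw and Ctsz. They were chosen by name, with earlier results of these data known. The cathepsin genes Ctsf, Ctsg, Ctsl and Ctso are not among them and are counted below with other lysosomal proteases. On the array 13 probes carry one of the 10 symbols. Each gene was represented by its brightest probe, so that 10 of the 18631 genes tested are the subject. All 10 probes were well above background on all 12 arrays. Against cultured Th17 cells, 8 of the 10 were higher in T cell preparations from the inflamed central nervous system (CNS) of each of the 2 disease models, by 2.14-fold to 43.3-fold after transfer and by 1.92-fold to 47.0-fold after immunisation. The exceptions were Ctse and Ctsw after transfer, and Ctse and Ctsk after immunisation. Calls used limma at an adjusted p under 0.05, where 12.8% of all genes were higher after transfer and 13.7% after immunisation.

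Most cathepsins are made as inactive proenzymes, are sorted to the lysosome with a mannose 6-phosphate tag, and become active when acid removes the propeptide. Ctsb, Ctsc, Ctsh, Ctsk, Ctss, Ctsw and Ctsz are cysteine proteases of the papain family, Ctsd and Ctse are aspartic proteases, and Ctsa is a serine carboxypeptidase. In antigen-presenting cells they cut the invariant chain and antigens for MHC class II. In T cells and other lymphocytes the same enzymes take part in granule protease activation and in protein turnover.

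Total RNA was measured on 12 single-colour arrays in 4 groups of 3, with replicates taken in 3 independent experiments per the series text. Immunised CNS cells were CD4+ T cells isolated from the CNS when experimental autoimmune encephalomyelitis (EAE) peaked in C57BL/6 animals given MOG35-55, a peptide of myelin oligodendrocyte glycoprotein. Transferred CNS cells were in vitro differentiated Th17 cells of B6.2d2 mice that had been injected into lymphopenic Rag1-/- mice and were recovered from their CNS when disease peaked. Cultured Th17 cells were differentiated in vitro from naive B6.2d2 cells. Naive cells were CD4+ T cells from B6.2d2 spleens. B6.2d2 mice carry a transgenic T cell receptor specific for MOG, which the immunised C57BL/6 mice do not, so immunised CNS cells differ from the other groups in strain as well as in origin. Rag1-/- hosts lack T and B cells of their own but keep their myeloid cells. Age, sex, pooling of animals, the cell sort and its purity are not given in the labels. Replicate 1 of all groups lay on slide 1, replicate 2 on slide 2 and replicate 3 on slide 3, with each group at the same position of its slide, so the position on the slide and the group cannot be told apart.

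Levels are given throughout as log2 of the processed signal minus that array's 75th percentile, so 0 is a signal at that percentile and a step of 1 is a doubling. Between 57.1% and 64.9% of spots were well above background per array, 0 were saturated, and replicates correlated across genes at 0.954 to 0.991. The 11 T cell markers were well above background on every array, and their summed signal relative to the 75th percentile was 341 to 520 in immunised CNS, 258 to 367 in transferred CNS, 559 to 587 in cultured Th17 and 528 to 607 in naive cells. The summed signal of the 5 Th17 markers was 8.61 to 32.7 in immunised CNS, 4.09 to 4.92 in transferred CNS, 19.0 to 174 in cultured Th17 and 0.237 to 0.364 in naive cells. Markers of macrophages and monocytes differed far more: 16 of 16 were well above background on all arrays of both CNS groups, with summed signals of 515 to 1084 in immunised and 654 to 1009 in transferred CNS cells. In cultured Th17 cells 12 of 16 were so, with C1qa and C1qc above background on no array and a sum of 21.3 to 33.7. In naive cells 7 of 16 were so, with 6 above background on no array, among them Adgre1, Fcgr1, C1qc, Mrc1 and Ms4a7, and a sum of 24.6 to 98.2. Itgam of the same list went the other way, with mean log2 levels of 5.54 in naive, 4.24 in cultured, 4.16 in immunised and 3.28 in transferred cells. It was the brightest marker of this list in naive and cultured cells. Neutrophil markers summed to 477 to 608, 4.86 to 178, 11.02 to 16.5 and 4.17 to 6.50 in the same 4 groups, dendritic cell markers to 4.49 to 5.68, 5.53 to 12.9, 0.626 to 0.965 and 0.0955 to 0.243, and microglia markers to 81.3 to 87.2, 96.1 to 104, 78.6 to 102 and 78.5 to 122. Sums were 2.81 to 3.17, 0.635 to 3.80, 0.427 to 2.002 and 2.77 to 4.07 for CD8 and NK cell markers, 1.82 to 2.14, 1.12 to 1.62, 0.639 to 2.24 and 1.40 to 3.04 for B cell markers, and 16.2 to 32.8, 11.02 to 22.7, 23.7 to 27.9 and 41.1 to 99.5 for neural and glial markers. Sums follow the brightest markers of a list, and the markers of 2 lists taken singly differed more than their sums. Of the 7 microglia markers, 6 were higher and 0 lower in each CNS group than in cultured Th17 cells, with median log2 differences of 4.17 after transfer and 4.03 after immunisation, and P2ry12 and Sall1 were above background on no cultured array. Of the 10 neural and glial markers, 4 were higher and 0 lower after transfer and 6 higher and 0 lower after immunisation, with medians of 2.08 and 2.88, and Gfap, Slc1a3 and Syt1 were above background on no cultured array. Against cultured cells, 12.8% of all genes were higher and 15.5% lower after transfer, and 13.7% higher and 17.8% lower after immunisation. Against naive cells, 6 microglia markers were higher and 0 lower after transfer, and 5 and 0 after immunisation. For neural and glial markers, 4 were higher and 2 lower than in naive cells in each CNS group. There, 21.2% of all genes were higher and 26.5% lower after transfer, and 20.6% and 27.7% after immunisation. Myeloid cells are rich in cathepsins, and the part of these other cells in each cathepsin difference below was not tested. In such bulk RNA, fewer cells of a type and less RNA per cell cannot be told apart.

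The promoters of 3 members are shown because they hold motifs known from lysosomal, myeloid or interferon-induced genes. RefSeq windows of 250 bases before to 50 bases after the start (build GRCm38.p6) were at hand for 6 members, 7 windows in all, and Ctsb, Ctse, Ctsh and Ctsw had none in the table. Searched on both strands were CACGTG, the E-box core of the MiT/TFE factors that drive lysosomal genes, GAGGAAGT, a motif of the myeloid and lymphoid factor PU.1, and an interferon response motif of GAAA, any 2 bases and GAAA. Capitals mark the matches in the sequences, read 5′ to 3′ on the strand of the gene.
Ctsa, chr2:164833523-164833822, plus strand: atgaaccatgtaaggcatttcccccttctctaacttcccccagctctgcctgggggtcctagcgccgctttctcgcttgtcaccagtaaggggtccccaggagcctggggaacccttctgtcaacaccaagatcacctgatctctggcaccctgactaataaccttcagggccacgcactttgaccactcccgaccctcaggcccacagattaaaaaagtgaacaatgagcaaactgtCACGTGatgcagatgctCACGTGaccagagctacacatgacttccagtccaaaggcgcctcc
Ctsd, chr7:142387778-142388077, minus strand: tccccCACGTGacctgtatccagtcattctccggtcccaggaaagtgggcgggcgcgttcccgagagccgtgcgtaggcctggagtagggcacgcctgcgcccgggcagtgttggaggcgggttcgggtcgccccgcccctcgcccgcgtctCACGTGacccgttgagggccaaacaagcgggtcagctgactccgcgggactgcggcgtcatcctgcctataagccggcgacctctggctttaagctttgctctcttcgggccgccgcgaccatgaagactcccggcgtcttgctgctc
Ctss, chr3:95526536-95526835, plus strand: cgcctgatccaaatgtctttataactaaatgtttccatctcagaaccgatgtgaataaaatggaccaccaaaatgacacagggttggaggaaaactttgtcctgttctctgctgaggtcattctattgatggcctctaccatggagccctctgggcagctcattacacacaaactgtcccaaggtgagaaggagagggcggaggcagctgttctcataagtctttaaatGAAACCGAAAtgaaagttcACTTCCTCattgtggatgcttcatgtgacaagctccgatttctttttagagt
The E-box core occurred in 2 copies in each of the Ctsa and Ctsd windows shown, and in 0 in the other Ctsa window (chr2:164832622-164832921), and 7.15% of all 32851 mouse windows held at least 1. Ctss held 1 interferon response motif, as 3.44% of windows did, and 1 PU.1 motif on the other strand (ACTTCCTC). The PU.1 motif was found in 3.20% of windows, and Ctsc held 1 as well. These matches describe letters in the windows and were not tested as sites.

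In the comparison of transferred CNS cells with cultured Th17 cells, which sets cells after their stay in the host against the cells injected, 8 cathepsin genes rose and 0 fell at an adjusted p under 0.05 with limma (28.3% of all genes were called, 12.8% higher and 15.5% lower). At an unadjusted p under 0.05, 9 were higher and 0 lower. Their median log2 difference was 2.71, against −0.10 over all genes tested. The 3 arrays of each group did not overlap for 8 of the 10, as for 41.3% of all genes, and within each of the 3 slides all 10 differences had the sign of the pooled one. Immunised CNS cells also had 8 higher and 0 lower against cultured Th17 cells (31.5% of all genes called, 13.7% higher and 17.8% lower; 8 and 0 at an unadjusted p under 0.05 with limma), with a median log2 difference of 2.04 against −0.17. Its groups did not overlap for 9 of the 10, as for 49.0% of all genes. The comparisons share the cultured arrays, so their values are not independent of each other.

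**Figure D1:**
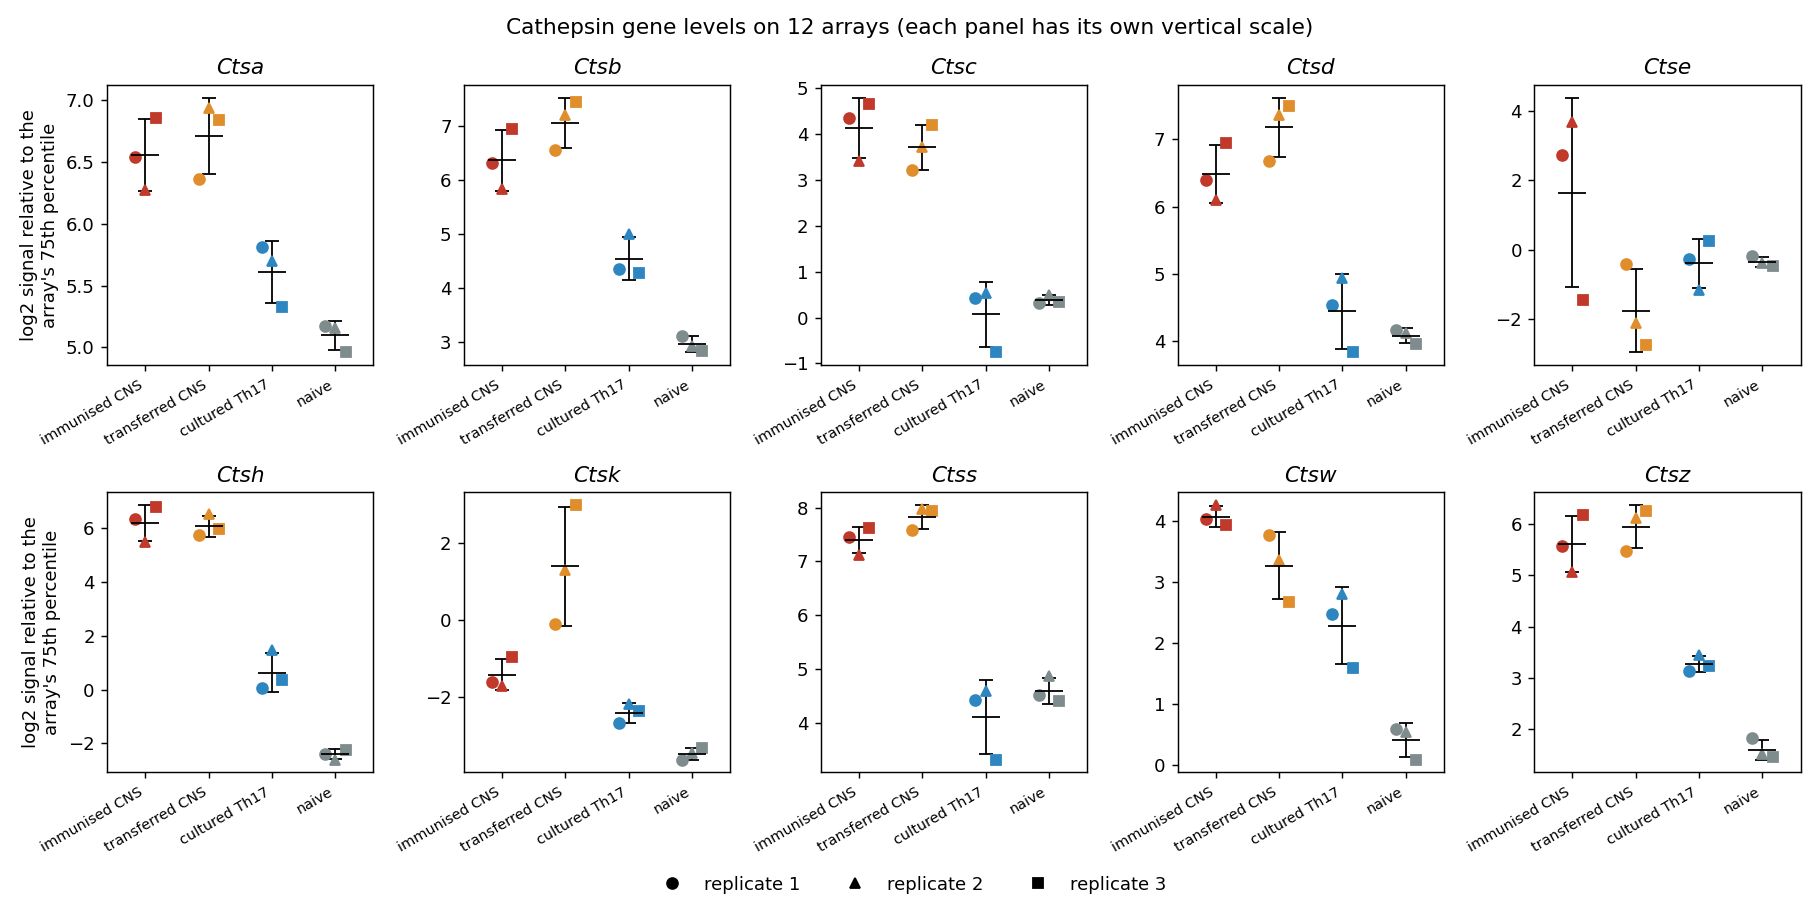
Levels of the 10 cathepsin genes on each array (vertical axis: log2 signal relative to the array's 75th percentile, a separate scale in each panel), with the mean and SD of 3 arrays in black and a symbol per replicate. Both CNS groups stand above cultured Th17 and naive cells in 8 panels without overlap, and Ctse and Ctsw depart from this order.

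Ctss, the endoprotease that trims the invariant chain in macrophages, dendritic and B cells, stood at 7.45, 7.13 and 7.62 in immunised CNS cells and at 7.58, 7.96 and 7.94 in transferred CNS cells. Cultured Th17 cells had 4.43, 4.59 and 3.32, and naive cells 4.52, 4.87 and 4.41. The 6 CNS arrays thus lay above the other 6, which overlapped each other. Ctss was 13.1-fold higher in transferred CNS than in cultured Th17 cells (log2 difference 3.71 ± 0.31 SE, adjusted p = 2.36e-05) and 9.73-fold higher in immunised CNS than in cultured Th17 cells (3.28 ± 0.31, adjusted p = 3.88e-05). Between cultured Th17 and naive cells the difference was −0.48 ± 0.31 (adjusted p = 0.241; 95% interval −1.17 to 0.20). The windowed promoter above, with its PU.1 and interferon response motifs, belongs to this gene.

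Ctsh, an aminopeptidase found in many tissues, gave the largest differences of the 10 genes against cultured Th17 cells. It stood at 6.32, 5.47 and 6.76 in immunised CNS cells and 5.74, 6.50 and 5.96 in transferred CNS cells, against 0.07, 1.46 and 0.36 in cultured Th17 cells and −2.38, −2.60 and −2.23 in naive cells. The CNS groups overlapped each other and stood far above cultured cells, which in turn stood above naive cells on all arrays. Transferred CNS cells exceeded cultured Th17 cells 43.3-fold (5.44 ± 0.40, adjusted p = 1.20e-05), and the differences within the slides were 5.68, 5.04 and 5.60. Immunised CNS cells exceeded them 47.0-fold (5.55 ± 0.40, adjusted p = 7.32e-06). Cultured Th17 cells exceeded naive cells 8.21-fold (3.04 ± 0.40, adjusted p = 0.000205).

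Ctsc, the dipeptidyl peptidase that activates granzymes and neutrophil serine proteases, had levels of 4.35, 3.41 and 4.67 in immunised CNS cells and 3.23, 3.72 and 4.20 in transferred CNS cells. Its levels were 0.43, 0.53 and −0.75 in cultured Th17 cells and 0.32, 0.50 and 0.33 in naive cells. Both CNS groups were clear of both others, and cultured cells straddled naive cells. The gene was 12.5-fold higher in transferred CNS than in cultured Th17 cells (3.65 ± 0.41, adjusted p = 0.000128) and 16.8-fold higher in immunised CNS than in cultured Th17 cells (4.07 ± 0.41, adjusted p = 5.56e-05). A second Ctsc probe gave 3.82 ± 0.42 and 3.83 ± 0.42 for the same comparisons.

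Ctsb, a protease with both endopeptidase and exopeptidase action, and Ctsz, a carboxypeptidase also called cathepsin X, shared a graded pattern. Ctsb stood at 6.32, 5.83 and 6.96 in immunised CNS, 6.55, 7.21 and 7.45 in transferred CNS, 4.35, 5.002 and 4.27 in cultured Th17 and 3.11, 2.91 and 2.83 in naive cells. Ctsz stood at 5.58, 5.07 and 6.17 in immunised CNS, 5.47, 6.11 and 6.26 in transferred CNS, 3.13, 3.45 and 3.23 in cultured Th17 and 1.82, 1.51 and 1.46 in naive cells. For both genes, every CNS array exceeded every cultured array, and every cultured array exceeded every naive array. Ctsb was 5.78-fold higher in transferred CNS than in cultured Th17 cells (2.53 ± 0.32, adjusted p = 0.000312), and Ctsz 6.40-fold (2.68 ± 0.29, adjusted p = 0.000103). In cultured Th17 cells Ctsb was 3.01-fold (1.59 ± 0.32, adjusted p = 0.00302) and Ctsz 3.18-fold (1.67 ± 0.29, adjusted p = 0.00113) above naive cells. Across the 12 arrays Ctsb and Ctsz had a Pearson r of 0.993, the highest of the 45 pairs of members, as a description over arrays that share group and slide.

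Ctsd, the main aspartic protease of lysosomes, and Ctsa, the serine carboxypeptidase that also protects beta-galactosidase and neuraminidase, are the genes whose promoters hold the E-box cores shown above. Ctsd stood at 6.39, 6.11 and 6.95 in immunised CNS, 6.68, 7.36 and 7.50 in transferred CNS, 4.55, 4.95 and 3.84 in cultured Th17 and 4.17, 4.12 and 3.96 in naive cells. It was 6.66-fold higher in transferred CNS than in cultured Th17 cells (2.74 ± 0.32, adjusted p = 0.000175) and 4.11-fold higher in immunised CNS than in cultured Th17 cells (2.04 ± 0.32, adjusted p = 0.000973). Cultured and naive arrays overlapped, with a difference of 0.36 ± 0.32 (adjusted p = 0.401; 95% interval −0.35 to 1.07). The second Ctsd probe gave 2.46 ± 0.32 for transferred CNS minus cultured Th17 and 2.88 ± 0.32 for immunised CNS minus cultured Th17.

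Ctsa had the smallest span. Its levels were 6.54, 6.28 and 6.85 in immunised CNS, 6.36, 6.94 and 6.84 in transferred CNS, 5.81, 5.70 and 5.33 in cultured Th17 and 5.17, 5.16 and 4.96 in naive cells. The groups did not overlap between CNS and culture or between culture and naive. Transferred CNS cells were 2.14-fold above cultured Th17 cells (1.10 ± 0.22, adjusted p = 0.00391) and immunised CNS cells 1.92-fold (0.94 ± 0.22, adjusted p = 0.00767). Cultured Th17 minus naive gave 0.52 ± 0.22 (adjusted p = 0.0804). A second, much dimmer Ctsa probe disagreed there: it gave −1.22 ± 0.29 for cultured Th17 minus naive (adjusted p = 0.00730) and 2.54 ± 0.29 for transferred CNS minus cultured Th17. The brighter probe lies at chr2:164665023-164665082 and the dimmer one at chr2:164666433-164666492 (mm9, plus strand), both listed under the same transcript, and which parts of the gene they read was not determined here.

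Ctsk, the collagen-cutting enzyme best known from osteoclasts, was the member called between the CNS groups. It stood at −1.61, −1.71 and −0.97 in immunised CNS, −0.12, 1.29 and 2.97 in transferred CNS, −2.69, −2.19 and −2.37 in cultured Th17 and −3.63, −3.47 and −3.33 in naive cells. All groups were clear of each other, and the transferred arrays spread over 3.09 log2 units. It was 13.9-fold higher in transferred CNS than in cultured Th17 cells (3.80 ± 0.59, adjusted p = 0.00103), with differences within the slides of 2.57, 3.48 and 5.34. The log2 difference was 4.55 without transferred replicate 1 and 3.002 without transferred replicate 3. Immunised CNS minus cultured Th17 was 0.99 ± 0.59 (adjusted p = 0.226; 95% interval −0.32 to 2.30).

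Ctsw, also called lymphopain and known from cytotoxic T cells and NK cells, rose with culture. Its levels were 4.04, 4.26 and 3.93 in immunised CNS, 3.77, 3.36 and 2.68 in transferred CNS, 2.47, 2.80 and 1.58 in cultured Th17 and 0.58, 0.54 and 0.08 in naive cells. The transferred group reached down into the cultured one and lay below every immunised array. Cultured Th17 cells exceeded naive cells 3.69-fold (1.88 ± 0.34, adjusted p = 0.00153), and immunised CNS cells exceeded cultured Th17 cells 3.46-fold (1.79 ± 0.34, adjusted p = 0.00292). Transferred CNS minus cultured Th17 was 0.98 ± 0.34 (adjusted p = 0.0539). With slide as a block, its adjusted p was 0.0146, and the differences within the slides were 1.30, 0.56 and 1.09. Without cultured Th17 replicate 2 the adjusted p was 0.0307, and without transferred CNS replicate 3 it was 0.0274. Over all 24 alternatives the adjusted p ranged from 0.011 to 0.170, so the call depended on the setting.

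Ctse, an aspartic protease of endosomes known from lymphoid and gastric tissue, followed no common order. It stood at 2.74, 3.68 and −1.47 in immunised CNS, −0.43, −2.12 and −2.75 in transferred CNS, −0.28, −1.17 and 0.26 in cultured Th17 and −0.19, −0.39 and −0.47 in naive cells. Immunised replicates 1 and 2 were above all other arrays, and immunised replicate 3 was below all naive and cultured arrays. No comparison of Ctse passed the test over all arrays. Transferred CNS minus cultured Th17 was −1.37 ± 1.11 (adjusted p = 0.399) and immunised CNS minus cultured Th17 was 2.05 ± 1.11 (adjusted p = 0.182; 95% interval −0.40 to 4.50). Without immunised replicate 3, immunised CNS exceeded cultured Th17 by 3.61 (adjusted p = 0.00376), naive cells by 3.56 (adjusted p = 0.00238) and transferred CNS by 4.98 (adjusted p = 0.00577) on the log2 scale.

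**Figure D2:**
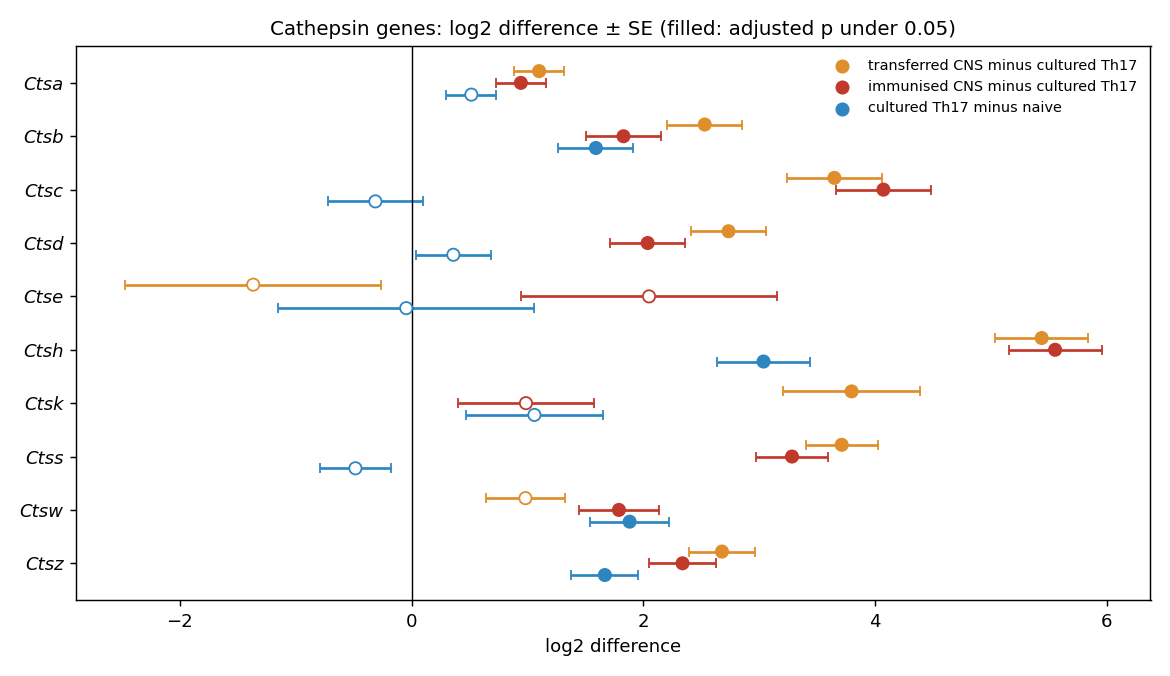
Log2 difference of each cathepsin gene (horizontal axis) with its SE for transferred CNS minus cultured Th17, immunised CNS minus cultured Th17 and cultured Th17 minus naive cells; filled points had an adjusted p under 0.05. Ctsh lies farthest right at 5.44, 5.55 and 3.04, and Ctsc and Ctss are high in both CNS groups with no call in culture.

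The step to cultured Th17 cells, which sets differentiated cells against the naive cells they came from, raised fewer members. Ctsb, Ctsh, Ctsw and Ctsz rose and 0 fell (40.1% of all genes were called, 19.7% higher and 20.4% lower; 5 higher and 0 lower at an unadjusted p under 0.05 with limma). The groups did not overlap for 6 of the 10, as for 49.8% of all genes. The median log2 difference of the 10 was 0.79, against −0.08 over all genes. Ctsk stood 2.09-fold higher in cultured Th17 cells without overlap (1.06 ± 0.59, adjusted p = 0.180), and was called without transferred CNS replicate 3 (adjusted p = 0.0355), an array that enters only through the shared spread. For Ctsa, leaving out cultured Th17 replicate 3 gave 0.66 (adjusted p = 0.0394).

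Against naive cells, 9 members were higher and 0 lower in each CNS group, with Ctse the one not called (9 and 0 at an unadjusted p under 0.05 with limma in both). Of all genes, 47.7% were called after transfer, 21.2% higher and 26.5% lower, and 48.3% after immunisation, 20.6% higher and 27.7% lower. The groups did not overlap for 9 of the 10 in either comparison, as for 59.2% of all genes after transfer and 65.6% after immunisation. Median log2 differences were 3.28 after transfer and 3.11 after immunisation, against −0.12 and −0.19 over all genes. Ctsh was 356-fold higher in transferred CNS (8.47 ± 0.40, adjusted p = 3.28e-07) and 386-fold higher in immunised CNS cells (8.59 ± 0.40, adjusted p = 2.99e-07). Ctsk was 29.0-fold higher in transferred CNS cells (4.86 ± 0.59, adjusted p = 9.69e-05) and 4.13-fold higher in immunised CNS cells (2.05 ± 0.59, adjusted p = 0.0155). The first was 5.61 on the log2 scale without transferred replicate 1 and 4.06 without transferred replicate 3. The call after immunisation was lost without immunised replicate 3 (adjusted p = 0.0604). Ctsa was the least changed of the 9, at 3.07-fold after transfer (1.62 ± 0.22, adjusted p = 0.000175) and 2.75-fold after immunisation (1.46 ± 0.22, adjusted p = 0.000357). With the dimmer Ctsa probe, immunised CNS minus naive was 0.75 ± 0.29 and was not called (adjusted p = 0.0546).

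Between the CNS groups, which sets the EAE models against each other, Ctsk fell by 2.81 ± 0.59 on the log2 scale in immunised relative to transferred CNS cells (adjusted p = 0.0324), a 7.01-fold lower level. The other 9 members passed no test (3.22% of all genes were called, 1.85% higher and 1.37% lower; 2 members higher and 1 lower at an unadjusted p under 0.05 with limma). The groups did not overlap for Ctsk and Ctsw, 2 of the 10, as for 33.8% of all genes. Within the slides Ctsk differed by −1.49, −3.00 and −3.94. Without transferred replicate 1 the difference was −3.56, and without transferred replicate 3 it was −2.01. Its call was lost without transferred replicate 2 (adjusted p = 0.0768) and without immunised replicate 1 (0.121), 2 (0.114) or 3 (0.0568), and in a fit of the 6 arrays compared (0.0837). Ctse differed by 3.42 ± 1.11 (adjusted p = 0.121; 95% interval 0.97 to 5.86) and Ctsw by 0.81 ± 0.34 (adjusted p = 0.221; 95% interval 0.05 to 1.56). For Ctsa the 95% interval of immunised minus transferred was −0.63 to 0.32 and for Ctsh −0.77 to 1.01. For Ctsb it was −1.42 to 0.02 and for Ctsd −1.41 to 0.01. The intervals of Ctsa, Ctsh, Ctsb and Ctsd hold 0, and true differences of any size within them remain possible. Those of Ctse and Ctsw do not hold 0, but the intervals are not adjusted for the number of genes tested. Of the 16 macrophage and monocyte markers, 0 were higher and 1 lower in immunised than in transferred CNS cells (0 and 1 at an unadjusted p under 0.05 with limma), with a median log2 difference of 0.06. The one, named after its value was seen, was Mrc1, a marker of alternatively activated macrophages, at −4.57 ± 0.68 (adjusted p = 0.00595).

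**Figure D3:**
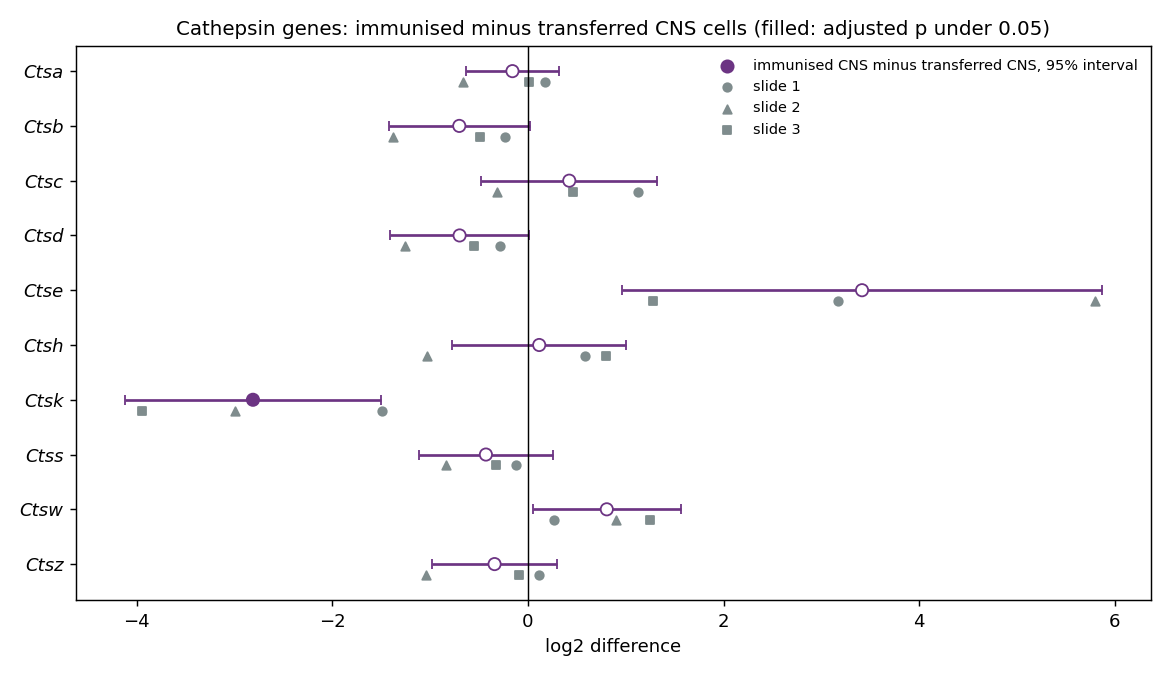
Log2 difference of each cathepsin gene between immunised and transferred CNS cells (horizontal axis) with its 95% interval, and below each the differences within slides 1, 2 and 3. Ctsk alone has a filled point (adjusted p under 0.05), at −2.81, and its 3 slides lie at −1.49, −3.00 and −3.94.

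With the brightest probes, transferred CNS, immunised CNS, cultured Th17, naive was the order from high to low for Ctsa, Ctsb, Ctsd, Ctsk and Ctsz. Ctsh and Ctsw had immunised CNS first and the rest alike. The step between cultured Th17 and naive cells was not called for Ctsa, Ctsd and Ctsk. Second probes gave other orders for Ctsd and Ctsa. For Ctsd, immunised minus transferred CNS was 0.42 ± 0.32 (adjusted p = 0.487) and cultured Th17 minus naive −0.16 ± 0.32 (adjusted p = 0.710). For Ctsa, cultured Th17 minus naive was −1.22 ± 0.29 (adjusted p = 0.00730). Ctss and Ctsc placed naive above cultured Th17 cells, neighbours that did not differ beyond their spread. Ctse ran immunised CNS, naive, cultured Th17, transferred CNS, with no neighbours called. Where the CNS groups were neighbours, only Ctsk passed the test between them. The CNS arrays of Ctsw did not overlap either, without a call (adjusted p = 0.221).

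Within each CNS group the replicates differed in a shared way. Immunised replicate 2 had the lowest and immunised replicate 3 the highest level of the same 8 members (Ctsa, Ctsb, Ctsc, Ctsd, Ctsh, Ctsk, Ctss and Ctsz), and Ctse and Ctsw were highest in replicate 2 and lowest in replicate 3. Transferred replicate 1 had the lowest level of those 8 members and the highest of Ctse and Ctsw. The summed macrophage and monocyte signal was 767, 515 and 1084 in immunised replicates 1 to 3 and 654, 1009 and 823 in transferred ones. It was thus lowest and highest on the same immunised arrays as the 8 members, and lowest on the same transferred array. Among transferred replicates this sum was highest in replicate 2, as were Ctsa, Ctsh and Ctss. By contrast, Ctsb, Ctsc, Ctsd, Ctsk and Ctsz were highest in transferred replicate 3. The summed T cell signal was 386, 520 and 341 in the immunised and 367, 359 and 258 in the transferred replicates. The extremes of this sum were the arrays of Ctse and Ctsw in both groups. The median log2 level of T cell markers was highest in transferred replicate 2 instead (4.79, 4.93 and 4.24 in replicates 1 to 3). Medians of CD8 and NK cell markers were −2.19, −1.86 and −2.64 in immunised and −1.69, −2.71 and −5.45 in transferred replicates. These medians had their extremes on the arrays of Ctsw, but the transferred CD8 and NK cell sum was highest in replicate 2 (3.51, 3.80 and 0.635). Neutrophil markers summed to 608, 477 and 526 in immunised and to 178, 37.6 and 4.86 in transferred replicates. The part of these cells in the spread was not tested.

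**Figure D4:**
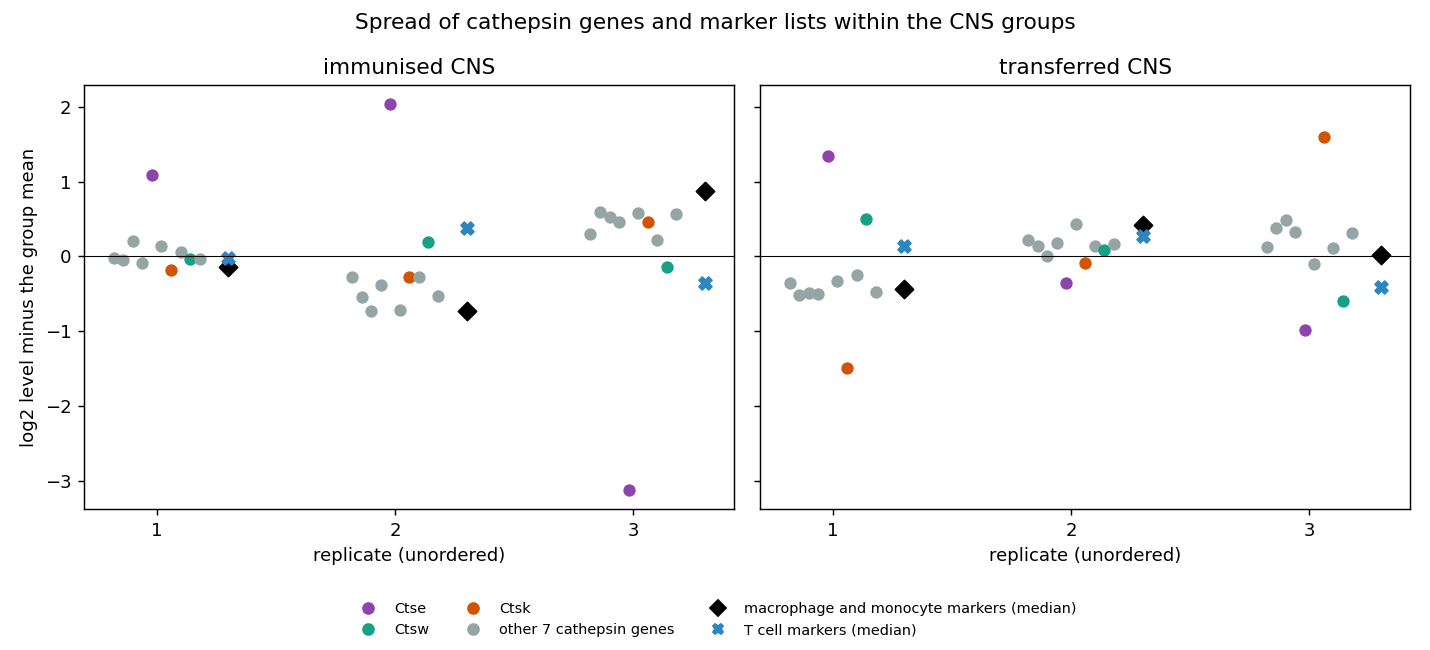
Deviation of each cathepsin gene from its group mean (vertical axis, log2) in the 3 immunised and 3 transferred CNS replicates, with the median deviation of macrophage and T cell marker lists at the right of each replicate. Grey points (the other 7 genes) and macrophage markers (diamonds) are low in immunised replicate 2 and transferred replicate 1, where Ctse and Ctsw are high.

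The genes whose levels over the 12 arrays were most like each member's are named as a description, by Pearson r among 14918 genes well above background on every array. For Ctsh they were the Fc receptor gene Fcgr3 (0.998) and the MHC class II gene H2-Eb1 (0.997), and for Ctss Ms4a6d (0.991) and C4b (0.987). For Ctsc they were Rab32 (0.996), a small GTPase of lysosome-related organelles, and an unnamed probe. Ctsz was most like Ltbr (0.996), a receptor of lymphotoxin, and Lat2 (0.994). Ctsb followed Ctsz itself and Renbp (0.992). Ctsd was most like Tnfrsf11a (0.989), the receptor RANK, and Daglb (0.988). For Ctsa the MiT/TFE factor Mitf (0.988) and the lysosomal carboxypeptidase Prcp (0.987) came first. Lower values were found for Ctsw with Icosl (0.980) and Hip1r (0.980), for Ctsk with Gm10914 (0.965) and Ltc4s (0.963), and for Ctse with Ikzf3 (0.916) and Sh2d2a (0.897). Groups that differ strongly produce high r over 12 arrays, and members correlated with each other between −0.44 (Ctse with Ctsk) and 0.993.

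The rest of the lysosome was followed through lists chosen with earlier results known. Of 10 other lysosomal proteases, 6 rose and 0 fell in transferred CNS relative to cultured Th17 cells (7 and 0 at an unadjusted p under 0.05 with limma), with a median log2 difference of 1.4999. There, 12.8% of all genes were higher and 15.5% lower. Ctsl, a cathepsin of thymic and myeloid cells, rose by 4.98 ± 0.43 (adjusted p = 2.78e-05), Lgmn, the asparaginyl endopeptidase that matures cathepsins, by 4.91 ± 0.45 (adjusted p = 3.96e-05), Dpp7 by 2.33 ± 0.43 (adjusted p = 0.00276) and Prcp by 1.98 ± 0.33 (adjusted p = 0.00142). In immunised CNS cells 6 rose and Ctsf, named after its value was seen, fell by 1.30 on the log2 scale (adjusted p = 0.0156). There, 13.7% of all genes were higher and 17.8% lower. Cultured Th17 relative to naive cells had 3 higher and 2 lower, where 19.7% of all genes were higher and 20.4% lower.

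Of 31 other lysosomal hydrolases and cofactors, 17 were higher and 1 lower in transferred CNS than in cultured Th17 cells, and 16 higher and 1 lower in immunised CNS than in cultured Th17 cells, with medians of 0.83 and 0.72. All genes had 12.8% higher and 15.5% lower after transfer, and 13.7% higher and 17.8% lower after immunisation. Without immunised replicate 3 the immunised comparison had 11 called in place of 17. After transfer the hexosaminidase gene Hexa rose by 3.05 ± 0.35 (adjusted p = 0.000158) and the phospholipase gene Pla2g15 by 2.98 ± 0.34 (adjusted p = 0.000153). The acid sphingomyelinase gene Smpd1, named after its value was seen, fell by 0.94 on the log2 scale (adjusted p = 0.0131). After transfer 28.3% of all genes were called in either direction, 12.8% higher and 15.5% lower. Of 18 lysosomal membrane and sorting genes, 6 rose and 0 fell there (8 and 0 at an unadjusted p under 0.05 with limma), a total close to the share called in either direction. Of these, Cd63 rose by 4.14 ± 0.49 (adjusted p = 0.000194), Lamp1 by 2.99 ± 0.29 (adjusted p = 4.96e-05), Lamp2 by 1.96 ± 0.34 (adjusted p = 0.00204) and the cholesterol transporter Npc1 by 1.36 ± 0.21 (adjusted p = 0.00110).

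Of 10 cysteine protease inhibitors tested, 1 was higher and 1 lower in transferred CNS than in cultured Th17 cells (3 and 2 at an unadjusted p under 0.05 with limma), where 12.8% of all genes were higher and 15.5% lower. This was a total of 2 that became 6 without transferred CNS replicate 1. Cst3, the secreted inhibitor cystatin C, rose by 2.05 ± 0.22 (adjusted p = 9.63e-05), and Cst7, the lysosomal inhibitor cystatin F of lymphocytes and myeloid cells, fell by 1.79 ± 0.39 on the log2 scale (adjusted p = 0.00726). In immunised CNS relative to cultured Th17 cells Cst3 rose by 2.40 ± 0.22 (adjusted p = 3.08e-05) and Cst7 fell by 2.50 ± 0.39 (adjusted p = 0.00096). Cst7 stood at 2.11 ± 0.60 in immunised CNS, 2.82 ± 0.37 in transferred CNS, 4.61 ± 0.37 in cultured Th17 and 0.95 ± 0.68 in naive cells (SD, n = 3 each). Cultured Th17 relative to naive cells had 7 higher and 0 lower (7 and 0 at an unadjusted p under 0.05 with limma). There, 19.7% of all genes were higher and 20.4% lower. Against naive cells 7 inhibitors were higher and 0 lower in transferred CNS, and 9 higher and 0 lower in immunised CNS. All genes had 21.2% higher and 26.5% lower after transfer, and 20.6% higher and 27.7% lower after immunisation. Only 6 of the inhibitors were well above background on all 12 arrays. In a fit of such genes, 4 of the 6 were called higher in cultured Th17 and 5 in immunised CNS relative to naive cells. The list holds stefin genes of near-identical copies, whose probes may read each other's transcripts.

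Of the 4 MiT/TFE transcription factor genes, 3 rose in each CNS group relative to cultured Th17 cells. All genes had 12.8% higher after transfer and 13.7% higher after immunisation. In transferred CNS cells Tfeb rose by 1.11 ± 0.22 (adjusted p = 0.00433) and Mitf by 3.21 ± 0.54 (adjusted p = 0.00175). Tfec rose by 5.67 ± 0.72 (adjusted p = 0.000298), with 1 of the 3 cultured arrays well above background, and Tfe3 differed by 0.24 ± 0.21 (adjusted p = 0.428). Tfe3 rose in culture relative to naive cells (1.04 ± 0.21, adjusted p = 0.00282).

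All 7 genes of the MHC class II pathway, whose invariant chain and antigens cathepsins cut, rose in both CNS groups relative to cultured Th17 cells, with medians of 3.58 after transfer and 3.54 after immunisation. Over all genes, 12.8% were higher after transfer and 13.7% after immunisation. After transfer H2-Aa rose by 5.77 ± 0.52 (adjusted p = 3.65e-05), H2-Eb1 by 5.51 ± 0.33 (adjusted p = 4.04e-06), the invariant chain gene Cd74 by 5.42 ± 0.35 (adjusted p = 6.41e-06) and the peptide exchange gene H2-DMb1 by 3.58 ± 0.39 (adjusted p = 0.000106). The macrophage and monocyte signal given above was high on the same arrays, and its part was not tested. Of 6 serine proteases that Ctsc activates, 2 rose and 0 fell after transfer (3 and 1 at an unadjusted p under 0.05 with limma). Their total was close to the 28.3% of all genes called in either direction, 12.8% higher and 15.5% lower. Gzmk was at least 22.4-fold higher in transferred CNS cells than in cultured Th17 cells, whose arrays were not well above background (adjusted p = 4.57e-06), where the fold is against the lowest well-measured signal of each cultured array. Prtn3, a neutrophil protease, rose by 3.02 ± 0.51 (adjusted p = 0.00163), with 1 of 3 cultured arrays well above background. Both genes were well above background on all 3 naive arrays and lower in cultured Th17 than in naive cells. Prtn3 stood at −2.87 in transferred CNS and −3.19 in naive cells, a difference of 0.32 ± 0.51 that was not called (adjusted p = 0.637). Gzmk was higher in transferred CNS than in naive cells by 1.62 ± 0.40 (adjusted p = 0.00720).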

How the data were processed

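Total RNA of 12 samples was measured on single-colour Agilent arrays. NucleoSpin RNA II extracts of 100 ng were amplified and labelled with Cy3, per the labels' protocols. The deposited intensity values are processed signals, background-subtracted and detrended within each array by Feature Extraction (version 10.7.3.1, protocol GE1_107_Sep09), per the file headers. The deposited series matrix, whose normalization is not stated, was an alternative; the lowest correlation of an array with its own column was 0.998, and the highest with any other column 0.991.

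From these, spots marked as outliers and control spots were left out (24 of 39429 probes dropped), repeated spots were averaged, and log2 processed signals were centred on each array's 75th percentile over the probes. The filter asked for a signal well above background in a whole group of 3 arrays, and 18631 genes passed. Fits used limma 3.58.1 in R 4.3.3 (lmFit, contrasts, eBayes) on all 12 arrays, where the residual degrees of freedom were 8 and the prior ones 2.485. Two-sided p-values were adjusted by Benjamini-Hochberg across those genes and called under 0.05, and each SE comes from this fit. The p-values reflect the spread between these 12 samples. On simulated data for transferred CNS minus cultured Th17 cells (18631 genes), 17, 32, 47 and 47 of 50 genes changed by 1, 2, 3 and 4 on the log2 scale were called, and 6 unchanged ones. Python 3.11.15 with pandas 2.3.3, matplotlib 3.10.9 and numpy 2.4.6 made tables and figures. The number of arrays limits the precision.

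All 10 members are named in every comparison, with the 2 genes most like each by Pearson r, up to 4 called genes without overlap per list in transferred CNS minus cultured Th17, and all 4 MiT/TFE genes. Some genes that this rule names are not reported here. Members and the lists were chosen with earlier results of these data known. Same-numbered replicates shared a slide but 4 of 18 correlations of their deviations exceeded 0.1 (range −0.20 to 0.20), so the numbers were not taken to pair the samples. Alternatives covered scaling, background, filters, probe choice, slide block, spread model, thresholds and leaving out each array.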

Additional observations from a re-analysis of the deposited data

How the results depend on the processing

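Of 1440 values of single cathepsin genes under 24 alternatives, 1408 kept their call status, 22 gained and 9 lost a call, and 1 changed sign with a call. The last was Ctsa in cultured Th17 minus naive cells, at −1.22 with the most variable probe, which is another probe of the gene. Changes of sign without a call in either fit were not counted. Ctsa in immunised minus transferred CNS, for example, was −0.16 in the main fit and reached 0.20 among the alternatives. Counts of members called kept within 1.5 times of their main value in 5 comparisons. The exception was immunised minus transferred CNS, with 1 member called: 0 without a filter (more genes tested), 0 from the 6 arrays compared, 0 at an adjusted p under 0.01, 6 with array weights and 0 to 1 when single arrays were left out; array weights raised the calls among all genes too, and their cause was not tested. With the replicate number, which is the slide, as a block (no pairing was taken from it), the counts were 9 of 10 for transferred CNS minus cultured Th17, since Ctsw gained a call, and 8 for immunised CNS minus cultured Th17, and it changed no other call of a member. Median scaling moved the median of all genes by −0.11 in transferred CNS minus cultured Th17 and by 0.11 in cultured Th17 minus naive. Ctsk in immunised CNS minus naive lost its call with normexp background correction (1.27, adjusted p = 0.0701), and Ctsk in immunised minus transferred CNS without a filter (adjusted p = 0.0559). Settings for the lists, added after seeing the data, moved some counts in transferred CNS minus cultured Th17: with array weights the inhibitors went to 5 called, the membrane genes to 10 and the Ctsc targets to 4, and with genes well above background on all 12 arrays the Ctsc targets to 1. The signal over background limits Tfec, Gzmk and Prtn3.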
